A study of Mus musculus with 6 samples.

Results

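The genes described here bind, make, break down or sense retinoic acid: the binding proteins Crabp1 and Crabp2, the retinal oxidizing enzymes Aldh1a1, Aldh1a2 and Aldh1a3, the retinoic acid hydroxylase Cyp26b1, and the receptors Rara, Rarb and Rarg. They were taken by name from the gene names that the scanner files give to non-control probes, and the set was chosen on the log2 fold changes of these same arrays, with large changes of Crabp1, Crabp2 and Aldh1a1 between the cell lines already known. Their changes are therefore given as a description: no p-value is printed for them, and where it is said which of them lay past the thresholds, nothing is read from it. The 9 genes had 12 probes, of 34797 named genes and 55681 probes on the array. Rara had 2 probes, Rarb had 3 and the other genes had 1 each. RNA came from immortalized mouse embryonic fibroblasts (MEF), cells grown out of mouse embryos that divide without limit, that were wild type (WT), lacked TIA1 (TIA1 KO) or lacked TIAR (TIAR KO), both of them RNA-binding proteins that act in splicing and translation. Each of the 3 groups had 2 arrays of samples labelled as independent, which the study describes as different biological samples of each condition. Whether they were separately derived isolates or cultures of the same line is not given in the sources used here, so p-values measure only the spread between such samples. The labels give WT MEF the strain W4, TIA1 KO MEF BALB/c and TIAR KO MEF C57BL/6, so that the effect of a genotype cannot be told apart from that of a strain or of a line. The sample labels give no treatment and no age. A single slide held all 6 arrays, with the TIA1 KO arrays in a row of their own, and that row cannot be told apart from the lack of TIA1.

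Retinol (vitamin A) circulates bound to a carrier, enters cells, is oxidized to retinal and then, by the aldehyde dehydrogenases of the Aldh1a family, to retinoic acid. Retinoic acid is bound in the cytoplasm by the CRABP proteins, of which CRABP2 is known to hand it to the nuclear receptors and CRABP1 to hold it in the cytoplasm, and it is inactivated by hydroxylases of the Cyp26 family. The receptors RARα, RARβ and RARγ pair with RXR on paired half-sites in DNA and switch target genes, several of which, among them Rarb and Cyp26a1, encode parts of the pathway itself. In the embryo this signal patterns the hindbrain, the trunk and the limbs, and fibroblasts of different body regions are known to differ in their genes for it.

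Values are log2 intensities after background correction and normalization, and a value can be set only against other values of the same probe. Before normalization, TIA1 KO arrays were the brightest, with a median spot intensity of 458 and 218, against 152 and 140 for WT and 136 and 119 for TIAR KO. They also had the fewest probes that the scanner software rated as well above background, 16021 and 19996, against 23569 and 26295 for WT and 24796 and 26011 for TIAR KO. Of the 12 retinoid probes the same rating was reached by 5 and 6 on WT, 7 and 7 on TIA1 KO and 7 and 8 on TIAR KO arrays, and no spot of them was saturated or marked as an outlier. Across all probes the SD between the arrays of a group was 0.27 in WT, 0.44 in TIA1 KO cells and 0.29 in TIAR KO cells on the log2 scale.

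The label of the cells was checked against 10 fibroblast markers. The collagen genes Col1a1 and Col1a2, vimentin (Vim), fibronectin (Fn1) and S100a4 were well above background on all 6 arrays, but WT MEF lacked or nearly lacked others. Pdgfra, a growth factor receptor of mesenchymal cells, was not well above background in WT cells at 6.37 and 6.40, and read 10.05 and 10.23 in TIA1 KO cells and 11.68 and 11.51 in TIAR KO cells. Thy1, a surface marker of many fibroblasts, read 6.63 and 6.98 in WT, 7.11 and 7.48 in TIA1 KO cells and 14.84 and 14.74 in TIAR KO cells, and it was high in TIAR KO MEF only among the 3 lines. Fibroblast markers passed both thresholds used here (an adjusted p under 0.05 with a change of more than 2-fold) for 7 of 10 genes in TIA1 KO cells and 8 of 10 in TIAR KO cells, all of them higher, and their summed linear intensity was 533490 and 567125 in WT, 1314780 and 1289680 in TIA1 KO cells and 1392310 and 1418740 in TIAR KO cells, with S100a4 the brightest. All 7 and 8 kept this direction under the alternatives run. In TIAR KO cells a call was lost only with either TIAR KO array left out. More calls were lost in TIA1 KO cells. There 4 of 10 passed with the replicate block, and 5 with quantile scaling without loess and with the authors' table. A common array median gave 5 higher and 1 lower. With the scanner software's processed intensities limma called 0 probes of the whole array in TIA1 KO cells and hence 0 of the 10, with 7 at an unadjusted p under 0.05. These calls were also lost with either WT array left out, as for the whole array.

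Of 4 markers of mesothelium, the sheet of cells that lines the body cavities, Upk3b, Wt1 and Lrrn4 were near background in both other lines and rose in TIAR KO MEF at least 143-fold, 16.3-fold and 4.91-fold, bounds set against the lowest signal rated well above background (limma adjusted p = 0.000206, 0.000489 and 0.00076). The mesothelial marker Msln went the other way, from 16.46 and 15.78 in WT to 14.64 and 14.36 in TIAR KO MEF, and it read 17.88 and 17.67 in TIA1 KO cells, a log2 fold change of 1.65 that did not pass (limma adjusted p = 0.0696). As the brightest of the list it set the summed intensity, which was 90771 and 56699 in WT, 241949 and 209328 in TIA1 KO cells and 44259 and 41455 in TIAR KO cells. Of 6 epithelial markers, 1 rose in TIA1 KO (Krt8) and 3 rose in TIAR KO MEF (Krt8, Krt18 and Cdh1), with a summed intensity of 1176 and 1080 in WT, 1297 and 1615 in TIA1 KO cells and 2543 and 2508 in TIAR KO cells, whereas Epcam was near background on 5 of 6 arrays. The epithelial call in TIA1 KO cells was lost under each other background correction or scaling run, with the authors' table, with the replicate block and without either WT array. Of 5 haematopoietic markers only Itgam passed, in TIA1 KO MEF, and Ptprc, which marks all leukocytes, was near background throughout. The Itgam call was lost with the processed intensities, quantile scaling without loess, a common array median, the authors' table and the replicate block. It was also lost without either WT array and without TIA1 KO replicate 1. Among endothelial, glial and neuronal markers limma called 0 in either knockout (an unadjusted p under 0.05 was reached by 1 endothelial marker in each and 1 neuronal marker in TIA1 KO cells), and Des was the only myogenic marker that did, in TIAR KO MEF. The lines thus differ in cell type markers as well as in the genes described below, and the part of this in their changes was not tested. In bulk RNA, a larger share of cells with a transcript and more of it per cell cannot be told apart.

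**Figure D1:**
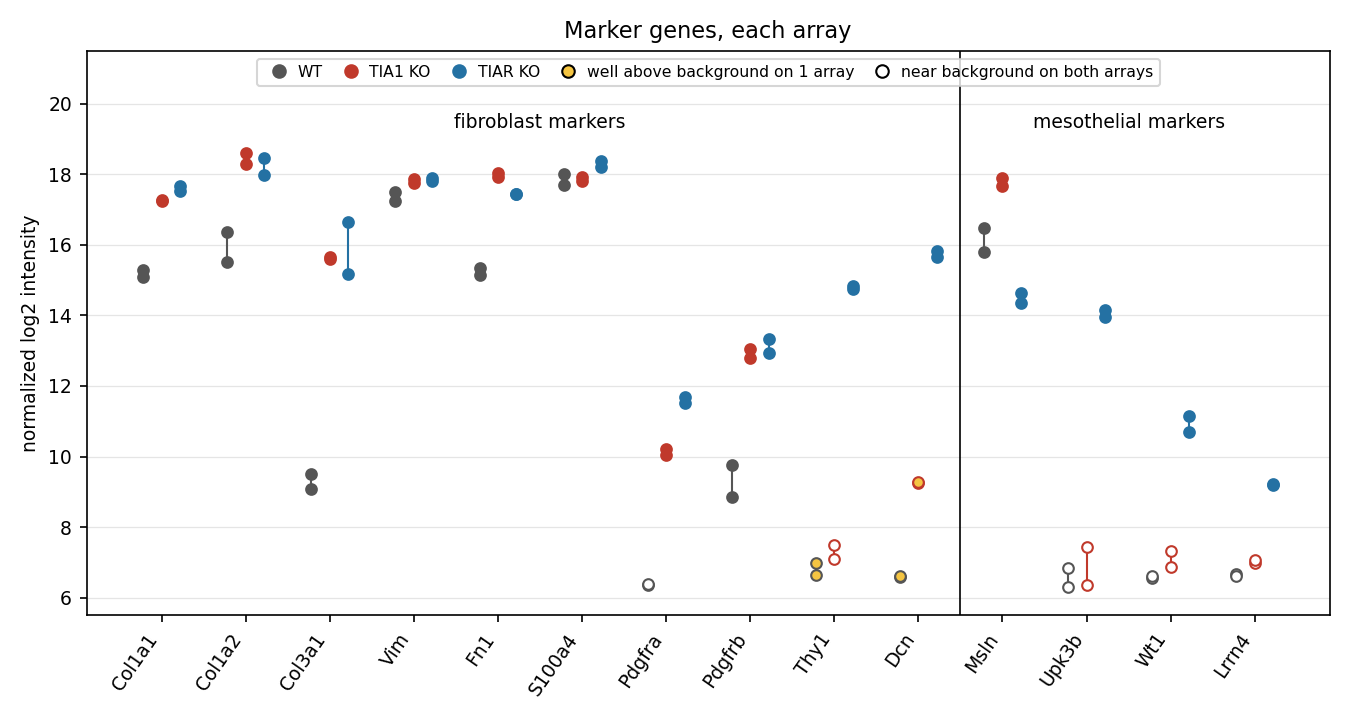
Normalized log2 intensity (vertical axis) of 10 fibroblast and 4 mesothelial markers on each array, with 2 points per group joined by a line, open where both arrays were near background and yellow where 1 array was well above it. On the TIAR KO arrays Thy1 reads 14.84 and 14.74, against 6.63 to 7.48 on the other arrays, and Upk3b is high in TIAR KO MEF only, whereas Vim lies between 17.24 and 17.89 everywhere.

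By western blot and RT-PCR, the study reports that each knockout line lacked the mRNA and protein of its targeted gene. On the arrays, the probes that target the knocked out genes gave an uneven picture. The brightest Tia1 probe read 10.72 and 8.54 in WT and 7.87 and 8.44 in the TIA1 KO line. The groups did not overlap, but the WT arrays differed by more than the groups. The second Tia1 probe gave −1.62 ± 0.42 on the log2 scale (limma adjusted p = 0.116) in the TIA1 KO line, and the third, near background in WT, gave 0.87 ± 0.28. For Tial1, the gene of TIAR, the brightest probe read 13.22 on the only WT array that kept a value, the other being an outlier spot, and 9.57 and 11.60 in the TIAR KO line, with −2.63 ± 0.87 (limma adjusted p = 0.2). The other Tial1 probe fell from 11.71 and 11.09 in WT to 10.00 and 9.65 in the TIAR KO line, a change of −1.58 on the log2 scale (limma adjusted p = 0.0254). Whether either probe lies in a deleted part is not given in the sources used here, and the brightest Gapdh probe differed from WT by −0.04 in TIA1 KO cells and 0.09 in TIAR KO cells.

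Crabp1 read 12.05 and 12.60 in TIA1 KO MEF. It was near background in the other lines, at 6.97 and 6.87 in WT and 6.85 and 7.16 in TIAR KO MEF. The signal was thus high in TIA1 KO MEF alone among the 3 lines, and the WT and TIAR KO values overlapped. The log2 fold change against WT was 5.40 ± 0.24 (standard error, n = 2 arrays per group, as for all fold changes here) in TIA1 KO cells and 0.08 ± 0.17 in TIAR KO cells. Because the WT values were near background, the fold can only be bounded. Each WT array was set to its lowest value with a well above background rating, or to what the probe itself read where this was higher, and Crabp1 by this measure was at least 39.3-fold higher in TIA1 KO MEF. The probe lies at chr9:54616192-54616251 (build mm9, plus strand), and its sequence is shown since the whole reading of Crabp1 rests on this 1 probe.
Crabp1 probe: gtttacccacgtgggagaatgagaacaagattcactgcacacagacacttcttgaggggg

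Crabp2 had another order. It read 15.42 and 15.66 in WT cells, 13.72 and 13.87 in TIA1 KO cells and 9.23 and 9.11 in TIAR KO cells, and all 6 values were well above background. The 3 groups did not overlap, with WT highest, TIA1 KO in between and TIAR KO lowest, and the largest gap between arrays of a group was far below the distance between groups. The log2 fold change was −1.75 ± 0.18 in TIA1 KO, or 3.35-fold lower, and −6.37 ± 0.16 in TIAR KO MEF, or 82.9-fold lower. Between the knockouts Crabp2 was 24.7-fold lower in TIAR KO MEF. The binding protein that WT MEF showed was therefore low in TIAR KO MEF, where no clear Crabp1 signal was seen, whereas TIA1 KO MEF had clear signals of both. The Crabp2 probe lies at chr3:87757207-87757266 (mm9, plus strand).

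Among the enzymes that oxidize retinal, only Aldh1a1 gave a clear signal. WT MEF read 6.86 and 6.53, near background, TIA1 KO MEF 7.57 and 8.33, with only the rating of 1 of 2 arrays above it, and TIAR KO MEF 15.04 and 14.68. The TIAR KO values stood far above the other 4, and the TIA1 KO values lay above both WT values. The log2 fold change was 8.17 ± 0.20 in TIAR KO MEF, where Aldh1a1 was at least 252-fold higher than in WT, and 1.25 ± 0.32 in TIA1 KO MEF, which did not pass both thresholds and for which no bound is given, since 1 of the 2 arrays was near background as well. The probe lies at chr19:20717764-20717823 (mm9, plus strand). Aldh1a2, the main retinoic acid synthesizing enzyme of the early embryo's trunk, read 7.23 and 7.04 in WT, 6.55 and 6.74 in TIA1 KO cells and 7.22 and 7.22 in TIAR KO cells (chr9:71143931-71143990), and Aldh1a3, its counterpart of the eye and nose, lay between 6.62 and 7.02 on all arrays (chr7:73535785-73535844, minus strand). Both were near background on all 6 arrays, so a difference could not be detected at this signal. With the processed intensities they gave 2.48 and 3.42 in TIA1 KO MEF, where the median of all probes was 1.98.

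A nearly identical gene, Aldh1a7, lies beside Aldh1a1 on chromosome 19, with its probe at chr19:20767553-20767612. It read 6.71 and 6.51 in WT, 8.48 and 9.23 in TIA1 KO cells and 11.94 and 11.31 in TIAR KO cells, in the same order of groups as Aldh1a1. Whether RNA of 1 of these genes binds the probe of the other was not tested, so each reading is uncertain as to which of them gave it.

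Cyp26b1, which breaks retinoic acid down, read 8.56 and 8.32 in WT, 11.22 and 11.56 in TIA1 KO cells and 8.21 and 8.22 in TIAR KO cells, all well above background. Its signal was high in TIA1 KO MEF, and the TIAR KO values lay just below both WT values. The log2 fold change was 2.95 ± 0.21 in TIA1 KO, or 7.71-fold higher, and −0.23 ± 0.16 in TIAR KO MEF, and the knockouts differed by 9.02-fold. The probe lies at chr6:84521952-84522011 (mm9, minus strand).

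The receptors moved less. The brighter Rara probe (chr11:98836197-98836256) read 13.58 and 13.78 in WT, 13.83 and 13.93 in TIA1 KO cells and 14.39 and 14.26 in TIAR KO cells, with log2 fold changes of 0.20 ± 0.16 and 0.64 ± 0.15. The second Rara probe (chr11:98835350-98835409) read 10.54 and 10.81, 10.45 and 10.78, and 11.32 and 11.66 in the same order of groups, with log2 fold changes of −0.06 ± 0.21 and 0.81 ± 0.19. On both Rara probes the TIAR KO arrays were the highest, by less than the fold threshold, and WT and TIA1 KO MEF differed little. Rarg (chr15:102065371-102065430, minus strand) read 14.56 and 14.56 in WT, 14.74 and 14.85 in TIA1 KO cells and 14.16 and 14.63 in TIAR KO cells, with log2 fold changes of 0.23 ± 0.15 and −0.16 ± 0.20. Rarg in TIAR KO cells was 0.07 without their replicate 1. The direction of the brighter Rara probe and of Rarg in TIA1 KO MEF flipped with the scaling: with a common array median as the scaling, where the median of all probes moved to −0.68, the Rara probes changed by −1.41 and −1.48 and Rarg by −1.36.

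Rarb had 3 probes, of which only the brightest was well above background on more than 1 array. The brightest (chr14:17263367-17263426, minus strand) read 7.42 and 7.47 in WT, where 1 of 2 arrays was well above background, 9.64 and 7.94 in TIA1 KO cells, with the same rating on 1 of 2, and 8.61 and 8.49 in TIAR KO cells. Both knockouts lay above WT, but the TIA1 KO arrays differed by more than either did from TIAR KO MEF. TIAR KO cells gave a log2 fold change of 1.10 ± 0.14. TIA1 KO cells gave 1.34 ± 0.60, which came to 0.49 when replicate 1 of that group was left out and to 2.19 when its replicate 2 was. A second probe (chr14:17264648-17264707), was well above background on 1 of 6 arrays, and changed by −0.26 ± 0.16 and 0.43 ± 0.15. The third, named in the files after another Rarb transcript (chr14:17651424-17651483), was near background on all 6 arrays and changed by 0.37 ± 0.19 and −0.21 ± 0.15. Both were near background in WT and TIA1 KO MEF, so a difference between these could not be detected on them. The sequence of the second probe is shown to tell it from the others.
Rarb second probe: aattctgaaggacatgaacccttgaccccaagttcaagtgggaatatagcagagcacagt

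**Figure D2:**
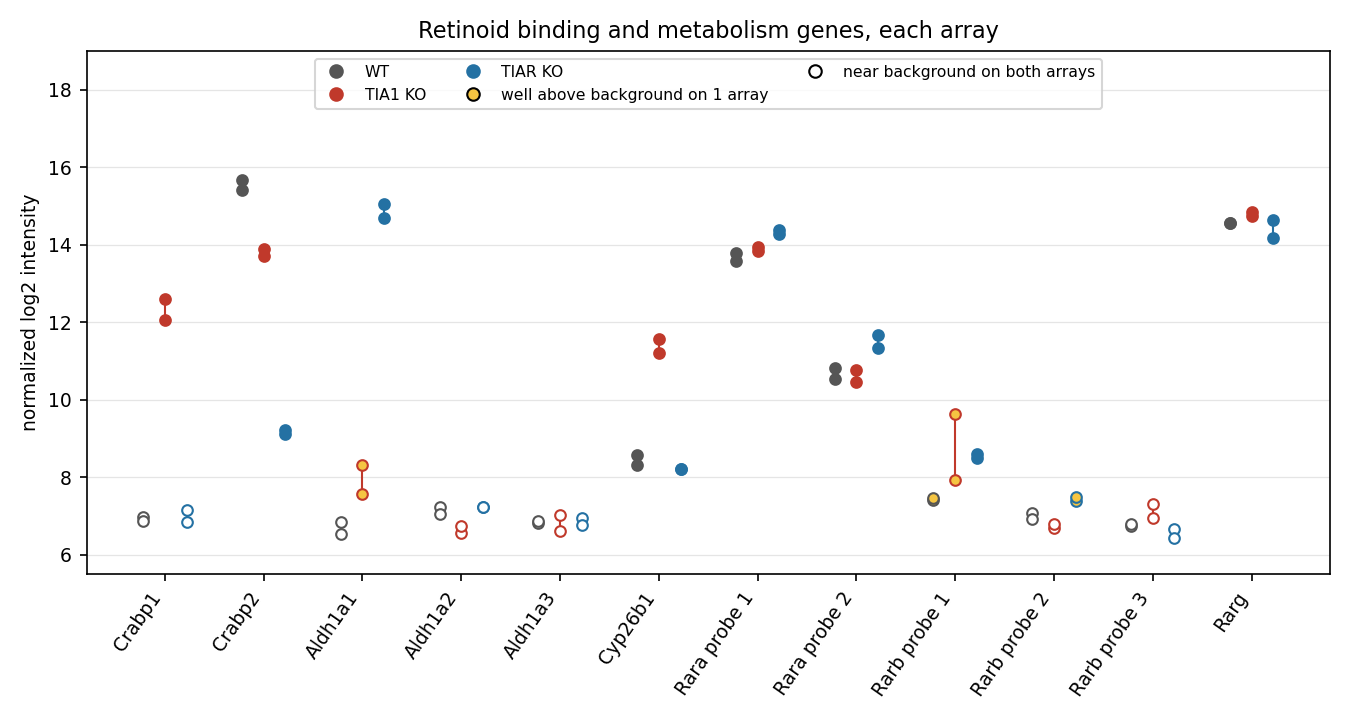
Normalized log2 intensity (vertical axis) of the 12 probes of the 9 genes on each of the 6 arrays, 2 points per group joined by a line, with open points where both arrays were near background and yellow points where 1 was well above it. Crabp1 and Cyp26b1 are high in TIA1 KO MEF, Aldh1a1 in TIAR KO MEF, Crabp2 falls from WT through TIA1 KO to TIAR KO MEF, and Rara and Rarg differ by less than the fold threshold, although both are lower in TIA1 KO MEF with a common array median.

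Past both thresholds lay 2 genes higher (Crabp1 and Cyp26b1) and 1 lower (Crabp2) in TIA1 KO MEF, of 9. Of all genes tested, 4.51% passed in that comparison, 2.88% higher and 1.63% lower. In TIAR KO MEF 2 were higher (Aldh1a1 and Rarb) and 1 lower (Crabp2), where 7.18% of all genes passed, 4.36% higher and 2.82% lower. Between the knockouts 1 was higher in TIAR KO MEF (Aldh1a1) and 3 were lower (Crabp1, Crabp2 and Cyp26b1), against 4.18% of all genes, 2.06% higher and 2.12% lower. Since the genes were chosen with these changes in view, nothing is read from these counts. With either WT array left out, or with the scanner software's processed intensities, 0 probes of the whole array passed in TIA1 KO cells. The median log2 fold change of the 9 genes was 0.23 in TIA1 KO cells and 0.08 in TIAR KO cells, and that of all genes was −0.07 and −0.01. Both knockouts are set against the same WT arrays, so their changes are not independent of each other. By member, Crabp2 was lower in both, Crabp1 and Cyp26b1 were higher in TIA1 KO MEF, with log2 fold changes of 0.08 and −0.23 in TIAR KO MEF, and Aldh1a1 was far higher in TIAR KO MEF.

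**Figure D3:**
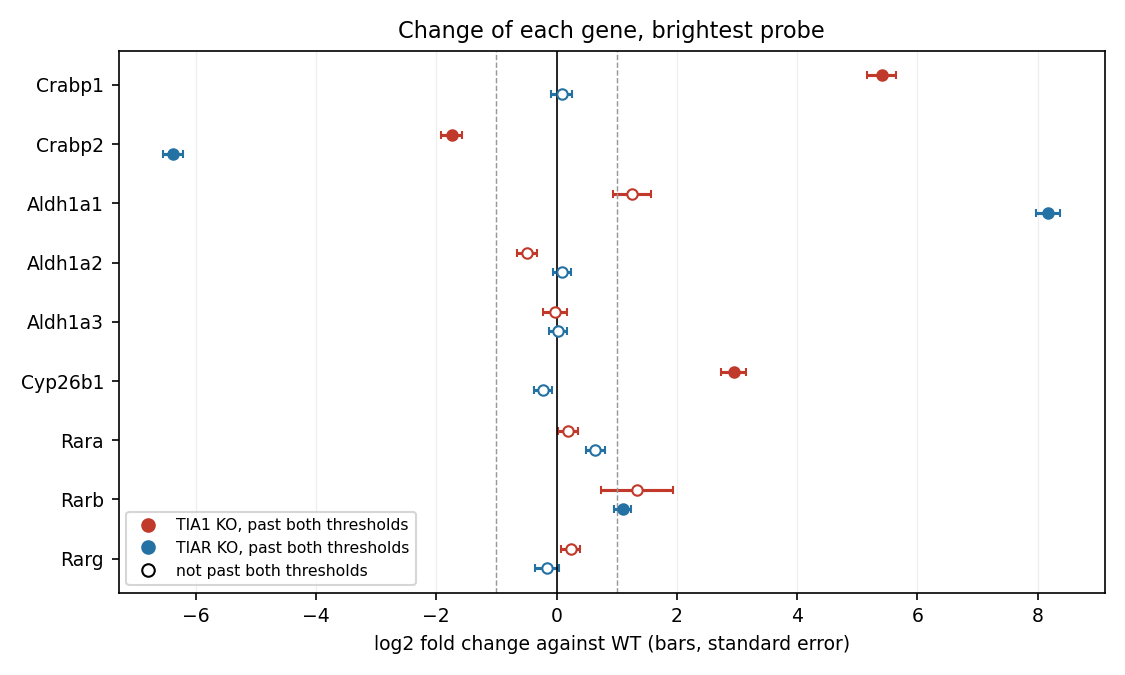
Log2 fold change against WT (horizontal axis, bars are standard errors) of the brightest probe of each of the 9 genes in TIA1 KO (red) and TIAR KO MEF (blue), filled where both thresholds were passed, with dashed lines at a fold of 2. Crabp1 lies at 5.40 and 0.08, Crabp2 at −1.75 and −6.37, and Aldh1a1 at 1.25 and 8.17, while Aldh1a2, Aldh1a3, Rara and Rarg lie within the dashed lines. In TIA1 KO MEF, Rara and Rarg pass these lines downwards with a common array median. Aldh1a2 (2.48) and Aldh1a3 (3.42) pass them upwards there with the processed intensities.

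The large changes kept their sign under the alternatives run, but their size moved. Over them the log2 fold change of Crabp1 in TIA1 KO MEF lay between 4.53 and 7.85, that of Cyp26b1 between 1.99 and 3.72, and that of Crabp2 in TIAR KO MEF between −6.97 and −6.18. For Aldh1a1 in TIAR KO MEF the range was 7.64 to 11.12. The weaker Aldh1a1 change in TIA1 KO MEF ranged from 0.33 to 3.94, and that of Crabp2 from −3.28 to −1.63. The log2 table that the authors deposited gave 5.49 for Crabp1, −1.71 for Crabp2, 0.48 for Aldh1a1 and 3.03 for Cyp26b1 in TIA1 KO cells, and −0.16, −6.18, 7.65 and −0.27 in TIAR KO cells, where Crabp1 thus turned sign near background.

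The start site window of 1 of the 9 genes holds letters of a kind that the receptors are known to bind. RefSeq start site windows (build GRCm38.p6, 250 bases before to 50 after the start) were found for 7 of the 9 genes, in 12 windows, with none matched for Crabp2 and Aldh1a3. Each window was searched on both strands for direct repeats of the half-site AGGTCA or of its relatives, that is AGTTCA, besides it GGGTCA, and lastly GGTTCA, in any pairing, which RAR and RXR bind as a pair, with 5, 2 or 1 bases between them. The repeat with a spacer of 5 bases was found in 32 of 32851 windows (0.0974%), among them Rarb and, of the other pathway genes, Cyp26a1. The repeats with 2 and 1 bases were in 0.268% and 0.222% of all windows and in none of the 7 genes searched. The 150 bases that end at each start site are shown to set both genes side by side, with the repeat and its spacer in capitals. In Rarb (chr14:16575477-16575626, minus strand) the repeat starts 53 bases before the start site on the strand of the gene, and in Cyp26a1 (chr19:37697658-37697807, plus strand) it starts 32 bases before it and reads on the opposite strand.
Rarb promoter: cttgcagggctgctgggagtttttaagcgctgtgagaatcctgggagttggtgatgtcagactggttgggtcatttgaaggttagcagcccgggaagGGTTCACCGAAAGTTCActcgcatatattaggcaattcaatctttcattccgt
Cyp26a1 promoter: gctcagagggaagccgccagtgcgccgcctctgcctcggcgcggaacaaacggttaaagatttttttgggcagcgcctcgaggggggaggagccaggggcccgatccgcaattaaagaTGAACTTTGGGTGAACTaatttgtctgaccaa
Both are textbook targets of retinoic acid. Rarb read as given above, and Cyp26a1 was near background on all 6 arrays, at 7.17 and 7.14 in WT, 7.08 and 7.01 in TIA1 KO cells and 7.44 and 7.34 in TIAR KO cells. A match is a description of letters only, and windows without one say nothing about receptor binding elsewhere.

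Next, 63 other genes of retinoid handling and response were listed by role. The list was chosen with earlier results of these data known, so its shares are a description and not a test of the list. The 63 were read from their brightest probes, and 18 of them were near background on all 6 arrays and 26 well above it on all 6. In TIA1 KO MEF 5 rose and 1 fell (9.52% of the list, against 4.51% of all genes), with a median log2 fold change of −0.07, equal to that of all genes to this precision. In TIAR KO MEF 11 rose and 2 fell (20.6%, against 7.18%), with a median of 0.11 against −0.01. An unadjusted p under 0.05 was reached by 22 and 21 of them. With either WT array left out limma called 0 probes of the whole array in TIA1 KO MEF, and so 0 of the 63, of which 14 (replicate 1 left out) or 15 (replicate 2 left out) had an unadjusted p below that level. The changes themselves moved little, to between 3.55 and 3.81 on the log2 scale for Rbp4 and between 3.62 and 3.997 for Dhrs3 over each array left out. Leaving out a TIA1 KO array raised the count, but it raised the calls of the whole array as well. Only 1 array then stands for that group, so nothing is read from the rise. Under a scaling to 1 shared median, the split in TIA1 KO cells was 3 higher and 24 lower, where 28.8% of all probes were called. In TIAR KO MEF the count was 5 without TIAR KO replicate 2 and 9 or 10 without any other array.

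In transport and uptake, 2 of 4 genes were called. Rbp4, the plasma carrier of retinol, was near background in WT at 6.31 and 6.39 and read 9.90 and 10.16 in TIA1 KO cells and 11.12 and 10.79 in TIAR KO cells. It rose in both knockouts, by 3.68 ± 0.17 (at least 8.82-fold, limma adjusted p = 0.00582) and 4.60 ± 0.17 (at least 16.7-fold, limma adjusted p = 0.000329). Stra6, the receptor that takes retinol from this carrier, rose in TIAR KO MEF by 1.18 ± 0.17 (at least 1.94-fold, limma adjusted p = 0.0164), from 6.72 and 6.65 to 7.72 and 8.03, and read 7.27 and 8.07 in TIA1 KO MEF, near background. The other 2, Ttr and Stra6l, were near background throughout.

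Of 6 genes that bind retinol or retinal inside or between cells, 1 fell in TIA1 KO MEF, and it is among those not reported by name. In TIAR KO MEF limma called 0 of the 6, with 1 at an unadjusted p under 0.05. Fabp5, a fatty acid binding protein that also carries retinoic acid, was well above background on all arrays and gave −0.43 ± 0.16 and 0.46 ± 0.15, neither of which passed.

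Among 18 retinol dehydrogenases and retinal reductases, 2 rose in TIA1 KO cells, and 2 rose and 1 fell in TIAR KO cells. Dhrs3, which reduces retinal back to retinol, was near background in WT at 7.01 and 6.63 and read 10.60 and 10.66 in TIA1 KO cells and 11.34 and 11.60 in TIAR KO cells. It rose by 3.81 ± 0.20 (at least 13.2-fold, limma adjusted p = 0.00677) and 4.65 ± 0.20 (at least 23.6-fold, limma adjusted p = 0.000393). Rdh10, the dehydrogenase that makes retinal in the embryo, followed the pattern of Cyp26b1 instead, at 9.96 and 10.12 in WT, 12.17 and 12.46 in TIA1 KO cells and 9.31 and 9.62 in TIAR KO cells. It rose in TIA1 KO MEF by 2.28 ± 0.19 (limma adjusted p = 0.0168) and gave −0.58 ± 0.17 in TIAR KO MEF (limma adjusted p = 0.138). Rdh5, a dehydrogenase of retinol isomers known from the eye, rose in TIAR KO MEF by 1.61 ± 0.22 (limma adjusted p = 0.014), from 8.63 and 8.09 to 10.01 and 9.93. Adh7, an alcohol dehydrogenase that also oxidizes retinol, fell there (−1.05 ± 0.16 on the log2 scale, limma adjusted p = 0.0203), from 9.69 and 9.85 to 8.62 and 8.82, a call that was lost without any 1 of the 4 arrays. In TIA1 KO MEF Adh7 was near background at 7.10 and 8.13, at least 3.23-fold lower than in WT, which did not pass (limma adjusted p = 0.0742).

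Of 3 other aldehyde dehydrogenases, Aldh1a7, with the array values given above, rose in TIAR KO MEF by 5.01 ± 0.25 (at least 26.7-fold, limma adjusted p = 0.000583) and in TIA1 KO MEF by 2.24 ± 0.31 (limma adjusted p = 0.0449), where 1 of 2 arrays was well above background and the change lay between 1.45 and 5.96 over the alternatives run. Aldh1b1, a mitochondrial member of the family, rose in TIAR KO MEF by 1.02 ± 0.17 (at least 1.89-fold, limma adjusted p = 0.0248), from 6.98 and 6.69 to 7.91 and 7.81. Of the 4 genes of retinyl ester synthesis and carotenoid cleavage limma called 0 in either knockout, with 2 and 0 at an unadjusted p under 0.05. Of the hydroxylases Cyp26a1 and Cyp26c1 it likewise called 0, with 0 at that level.

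**Figure D4:**
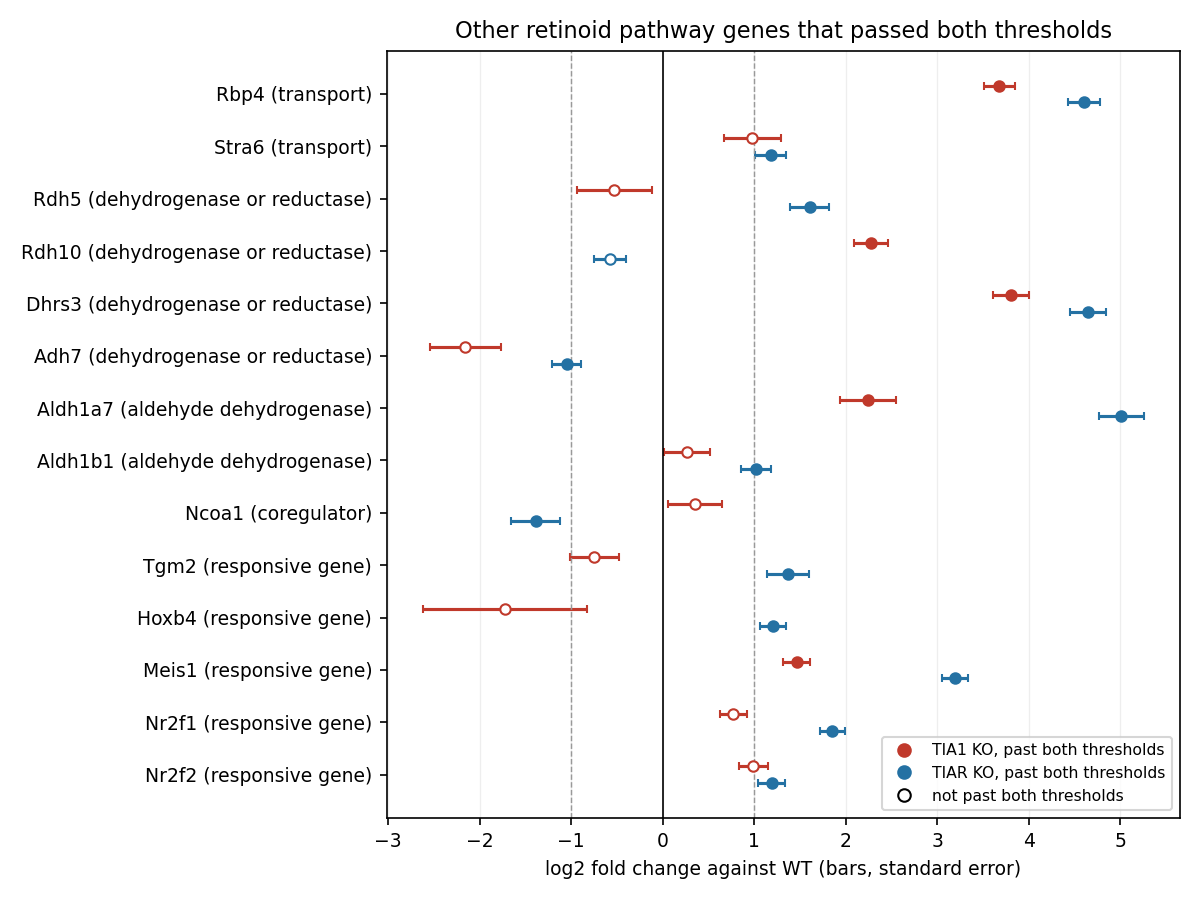
Log2 fold change against WT (horizontal axis, bars are standard errors) of 14 other pathway genes that passed both thresholds in a knockout, TIA1 KO in red and TIAR KO in blue, filled where passed, with dashed lines at a fold of 2. Rbp4, Dhrs3, Aldh1a7 and Meis1 are filled in both knockouts, Rdh10 only in TIA1 KO cells, and the other 9 only in TIAR KO cells.

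Of 4 partner receptors, Rxra, Rxrb, Rxrg and Ppard, limma called 0 in either knockout, with 1 at an unadjusted p under 0.05 in each, and Rxrb, the brightest of them, gave −0.01 ± 0.15 and −0.56 ± 0.54. Of 7 coregulators, which carry the repressing or activating effect of the receptors, 1 was called. Ncoa1, a coactivator, fell in TIAR KO MEF (−1.39 ± 0.27 on the log2 scale, limma adjusted p = 0.043), from 10.64 and 11.38 in WT to 9.71 and 9.53, and its other 2 probes gave −1.33 and −1.16. The Ncoa1 call was lost with the replicate block and with the processed intensities.

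Of 15 genes known to respond to retinoic acid, 1 rose in TIA1 KO cells and 5 rose in TIAR KO cells, and none fell. Meis1, a homeobox factor of limb and trunk patterning, read 9.43 and 9.38 in WT, 10.83 and 10.91 in TIA1 KO cells and 12.57 and 12.63 in TIAR KO cells. It rose by 1.47 ± 0.15 (limma adjusted p = 0.0264) and 3.20 ± 0.14 (limma adjusted p = 0.00044), in 3 groups that did not overlap. The orphan receptors Nr2f1 and Nr2f2 rose in TIAR KO MEF by 1.86 ± 0.14 (limma adjusted p = 0.00206) and 1.19 ± 0.15 (limma adjusted p = 0.0111). Nr2f1 read 10.52 and 10.47 in WT and 12.32 and 12.38 in TIAR KO MEF, and Nr2f2 10.35 and 10.50 in WT and 11.55 and 11.68. In TIA1 KO MEF Nr2f1 read 11.31 and 11.22 and Nr2f2 11.43 and 11.40, changes of 0.77 ± 0.15 and 0.99 ± 0.16 that did not pass (limma adjusted p = 0.0827 and 0.0582), and Nr2f2 differed between the knockouts by 0.20 ± 0.15 (limma adjusted p = 0.464). The other Nr2f1 probe gave 1.16 ± 0.29 in TIAR KO MEF (limma adjusted p = 0.0886) and −0.04 ± 0.19 in TIA1 KO MEF. The homeobox gene Hoxb4 rose in TIAR KO MEF by 1.21 ± 0.14 (limma adjusted p = 0.00908) and Tgm2, a transglutaminase, by 1.37 ± 0.23 (limma adjusted p = 0.026). In TIA1 KO MEF Hoxb4 read 10.16 and 7.58, both below the WT values of 10.53 and 10.65. The Hoxb4 change did not pass there (limma adjusted p = 0.28). It lay between −3.01 and −0.43 over each array left out, so its size is not resolved. Tgm2 gave −0.75 ± 0.27 in TIA1 KO MEF.

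In TIAR KO MEF, Rbp4, Dhrs3, Aldh1a7, Meis1 and Nr2f1 passed both thresholds under each of the 13 alternatives run for them, and the other 8 calls were each lost without at least 1 of the 4 arrays. In TIA1 KO MEF the calls of Rbp4, Dhrs3, Rdh10, Aldh1a7 and Meis1 were lost without either WT array and with the scanner software's processed intensities, where limma called 0 probes of the whole array, and kept their sign under every alternative run. Aldh1a7 was lost as well with quantile scaling without loess, with the authors' table and with the replicate block, and Meis1 with the authors' table and with that block, so that Aldh1a7 kept its call in 6 of 12 alternatives and Meis1 in 7 of 13. Over each array left out, Rdh10 lay between 2.13 and 2.42 and Meis1 between 1.43 and 1.503. With processed intensities, all probes had a median change of 1.98, against 7.15 for Rbp4, 5.74 for Dhrs3, 2.31 for Rdh10 and 1.56 for Meis1. With a common array median Meis1 gave 0.09 and Rdh10 0.93 there, and neither passed. Fibroblast markers and, in TIAR KO MEF, 3 mesothelial markers rose in the same comparisons, as given above, and their part in these changes was not tested.

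The knockouts were also compared with each other directly. Of the 63 genes 6 were higher in TIAR KO MEF and 2 lower (12.7%, against 4.18% of all genes), with a median log2 difference of 0.27 against 0.04. With either TIAR KO array left out limma called 0 probes of the whole array and so 0 of these genes, of which 17 (replicate 1 left out) and 15 (replicate 2 left out) had an unadjusted p under 0.05, while over each array left out the difference lay between 1.69 and 1.77 for Meis1 and between −3.01 and −2.70 for Rdh10. Rdh10 was lower in TIAR KO MEF, with a log2 difference of −2.85 ± 0.21 (limma adjusted p = 0.0138), as was Ncoa1 with −1.74 ± 0.16 (limma adjusted p = 0.022). Higher in TIAR KO MEF were Aldh1a7 with 2.77 ± 0.37, Tgm2 with 2.12 ± 0.18 and Meis1 with 1.73 ± 0.15 (limma adjusted p = 0.0441, 0.0186 and 0.0199). Nr2f1 was higher as well, by 1.08 ± 0.15 (limma adjusted p = 0.0489), a call kept in 5 of 13 alternatives. Those of Aldh1a7 and Tgm2 were kept in 7 of 13 and lost with the authors' table. With the replicate block limma called 0 probes of the whole array in this comparison. Rbp4 and Dhrs3, called in both knockouts against WT, differed between the knockouts by 0.92 ± 0.21 and 0.84 ± 0.17, which did not pass (limma adjusted p = 0.113 and 0.1).

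Finally, the genes whose values over the 6 arrays were nearest to those of Crabp1, Crabp2 and Aldh1a1 were found. Each probe was centred on its own mean, and the root mean square difference from the member was taken over the 6 arrays, among 12350 other genes named with a RefSeq mRNA accession whose 2 arrays in some group were both well above background. Among the 3 nearest to Crabp1 were Hoxd13, a homeobox gene of the distal limb (difference 0.148 on the log2 scale), and Klra15, a lectin-like receptor of natural killer cells (0.171). Hoxd13 read 6.43 and 6.61 in WT, 11.90 and 12.48 in TIA1 KO cells and 6.65 and 6.76 in TIAR KO cells, and so, like Crabp1, was high in TIA1 KO MEF only, the pattern by which it was picked. Crabp1 was near background on the other 4 arrays, so the likeness there rests on such readings and the order of these genes is not firm. Nearest to Crabp2 were Tmem37, a membrane protein (0.270), Plagl1, an imprinted zinc finger factor (0.366), and Lrba, a protein of vesicle traffic (0.486). Plagl1 fell from 13.30 and 13.16 in WT through 11.11 and 11.33 in TIA1 KO to 7.40 and 7.44 in TIAR KO MEF.

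Nearest to Aldh1a1 were the fibroblast marker Thy1 (0.401), the mesothelial marker Upk3b (0.440) and Fabp7, a fatty acid binding protein of radial glia (0.530). Fabp7 read 6.29 and 6.48 in WT, 7.66 and 7.66 in TIA1 KO cells and 13.52 and 13.82 in TIAR KO cells. Thy1 and Upk3b were also among the markers used to check the cell label. On the WT and TIA1 KO arrays Upk3b was well above background on 0 of 4 and Thy1 and Aldh1a1 on 1 of 4, so that the likeness there rests on readings near background and the order of these genes is not firm. With 6 arrays of 3 lines, likeness rests on the levels of 3 groups.

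**Figure D5:**
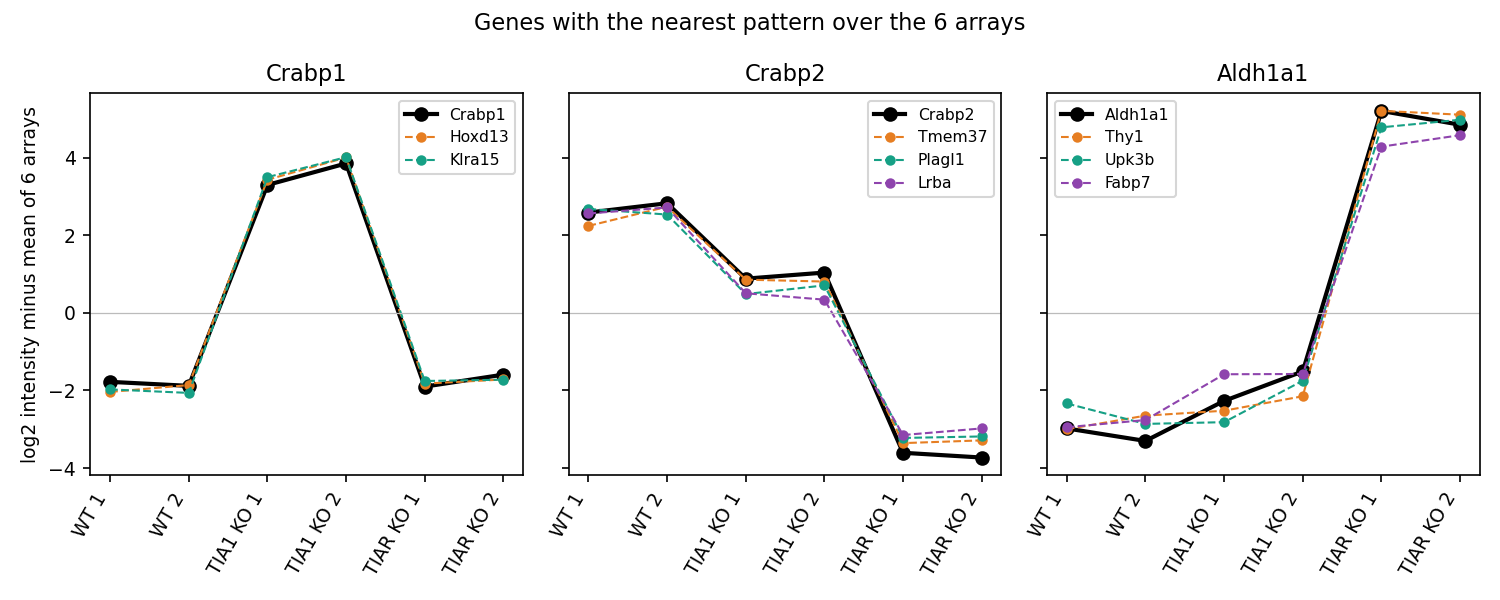
Log2 intensity minus the mean of the 6 arrays (vertical axis) on each array (horizontal axis) for Crabp1, Crabp2 and Aldh1a1 (black) and genes among the 3 nearest to each (coloured, dashed; 2 for Crabp1, 3 for each of the others). The genes near Crabp1 rise only on the TIA1 KO arrays, those near Crabp2 step down from WT to TIAR KO MEF, and Thy1, Upk3b and Fabp7 rise with Aldh1a1 on the TIAR KO arrays.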

How the data were processed

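Cy3-labelled RNA of the 3 MEF lines was hybridized to 1-colour mouse arrays of 60-base probes, 2 per group. The authors deposited the scanner software's spot intensity values (Agilent Feature Extraction 10.7.3.1), not normalized between arrays, with local background and flags, and a second file, a matrix of log2 values they state to be normalized. From the mean intensity and median background, values were corrected by normexp (offset 50), taken to log2, given 1 loess pass with the 6-array mean as reference, and quantile normalized. Control and outlier spots were then left out, replicate spots were averaged, and dim probes stayed in. Correlations with that matrix of the authors were 0.9973 to 0.9994 per array.

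limma's lmFit and eBayes were run separately for each comparison, on 4 arrays, with Benjamini-Hochberg adjustment over 55681 probes and the thresholds of the methods, an adjusted p under 0.05 and a fold above 2. A probe was taken as well above background where the scanner software gave 50% or more of its spots that rating, and a gene was read from its brightest probe. Named were all probes of the 9 genes, the brightest of Tia1, Tial1 and Gapdh with other Tia1 and Tial1 probes, pathway genes called in a knockout, the brightest of each role, and the 3 nearest patterns. Exceptions are said to be such. Some genes that meet this rule are counted but are not reported here by name. The members, lists, tests and alternatives were chosen with earlier results of these data known. The alternatives were the processed intensities scaled to the 75th percentile, an offset of 16, quantile without loess, a common array median, the authors' table, outlier spots kept, only probes well above background, all groups fitted together, the replicate number as a block, any probe of a gene, and each array left out with the normalization kept, where a lone array was assumed to vary like the other group. Arrays with the same number did not deviate together (correlations of 0.0781, 0.0303 and −0.0723), so the numbers were not taken as pairs. Positions are those of the files (mm9). Promoter windows are from RefSeq (GRCm38.p6), matched by symbol for 7 of 9 and 48 of 63 genes, and builds were not mixed. With 2 arrays per group, precision is limited by their number. R 4.3.3, limma 3.58.1, the data.table package (1.17.8), Python 3.11.15 and matplotlib 3.10.9 were used.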

Additional observations from a re-analysis of the deposited data

Results flagged for a closer look

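The changes of 8 other retinoid pathway genes against WT, of which 7 are reported by name, differed between the knockouts by limma's direct test of TIAR KO against TIA1 KO MEF. The log2 differences were −2.85 for Rdh10, 2.77 for Aldh1a7, −1.74 for Ncoa1, 2.12 for Tgm2, 1.73 for Meis1 and 1.08 for Nr2f1. The last was 2.16 for Hoxd4 (at least 2.65-fold, limma adjusted p = 0.0461), a homeobox gene named here after its values were seen, which read 9.19 and 8.57 in WT, 6.52 and 7.05 in TIA1 KO and 8.69 and 9.20 in TIAR KO MEF. Since both knockouts are set against the same WT arrays, this test does not use them.

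For Cyp26b1, both TIA1 KO arrays lay above WT and both TIAR KO arrays below it. The log2 difference between the knockouts was −3.17, and it lay past both thresholds, but it is a description and was not tested as a finding, because the gene was chosen with its change known. The step below WT in TIAR KO MEF, −0.23 on the log2 scale, was smaller than the gap between the WT arrays.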

How the results depend on the processing

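Over the alternatives, 276 of 360 values of the member probes moved by less than the spread between replicates, and 84 moved by more. Of the named pathway genes, 589 of 738 values kept their direction and their side of the thresholds, 94 lost the call, 32 gained it and 23 changed sign, all 23 of them in changes that had not been called. With 2 arrays per group, signals near background and groups that differ in strain, small changes cannot be resolved, and the cause of the shifts below was not tested.

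Of the 63 pathway genes 6 were called in TIA1 KO MEF, 13 in TIAR KO MEF and 8 between the knockouts. The processed signal scaled to the 75th percentile gave 0 (as for the whole array), 8 and 2, where 29, 18 and 26 had an unadjusted p under 0.05 in limma. A common array median gave 27 (3 higher and 24 lower), 8 and 27. This scaling called 28.8%, 7.51% and 15.1% of all probes, against 3.54%, 5.76% and 3.35% in the main fit. The authors' log2 values gave 3 in TIA1 KO MEF and 4 between the knockouts. Quantile without loess gave 5 between the knockouts, and all 3 groups fitted together 8 in TIAR KO MEF. The replicate block gave 3 in TIA1 KO MEF, 13 in TIAR KO MEF and 0 between the knockouts (as for the whole array), where 20 had an unadjusted p under 0.05. The 13 in TIAR KO MEF were not the same genes as in the main fit, since Ncoa1 was lost and Rdh11 gained. Leaving out 1 array gave 0 to 13 genes in TIA1 KO MEF, 5 to 10 in TIAR KO MEF and 0 to 18 between the knockouts.

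Signs that changed were in TIA1 KO MEF, with a common array median, those of Nr2f1 (−0.71), Ncoa1 (−1.05), Nr2f2 (−0.46), Aldh1b1 (−0.0058), Rdh11 (−0.50) and Rai14 (−1.19), and in TIAR KO MEF that of Rai14 (−0.27). Between the knockouts they were those of Dgat1 (1.08), Rxrb (0.58) and Rai14 (0.93) with that scaling, and of Stra6 (−0.82), Dgat1 (0.19) and Rai14 (0.058) with the processed signal. Rxrb in TIA1 KO MEF was 0 in the authors' log2 table. With 1 array left out, Ncoa1 (−0.015 to 0.72) and Rxrb (−0.032 to 0.019) crossed 0 in TIA1 KO MEF, Rxrb (−1.41 to 0.30) in TIAR KO MEF, and Stra6 (−0.20 to 0.60), Rdh11 (−0.064 to 0.66), Dgat1 (−0.12 to 0.026) and Rxrb (−1.40 to 0.30) between the knockouts.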
